A study of Mus musculus with 13 samples.

Results

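Potassium channels are membrane proteins that let potassium leave or enter a cell, and together they set the resting potential, end the action potential and space the spikes of a neuron. The genes studied here are all those of the deposited mouse table whose symbol is Kcn followed by letters and a number, which takes in the pore subunits of voltage-gated (Kv), inwardly rectifying, two-pore leak and calcium- or sodium-activated channels and several of their auxiliary subunits. Of 92 such symbols, 81 reached 10 normalized counts in at least 2 of the 13 samples and are the members described here, out of 26264 genes in the table and 17755 genes that passed the same minimum and were tested. In dopamine neurons of the midbrain the A-type channel of Kcnd3 slows the return to threshold between spikes, the calcium-activated channel of Kcnn3 shapes the afterhyperpolarization, and the G-protein-gated channel of Kcnj6 carries the inhibition set off by dopamine autoreceptors.

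The samples were tissue punches of the ventral tegmental area (VTA), a midbrain nucleus rich in dopamine neurons that innervate the nucleus accumbens and prefrontal cortex, from mice with the strain label C57BlJ/6. Every mouse had received a virus at postnatal day 14, which carried either Setd7, a lysine methyltransferase, or green fluorescent protein (GFP), and was sampled as an adult. The groups were Setd7 with social defeat (Setd7 defeat, n = 2, 1 female), Setd7 without defeat (Setd7 control, n = 4, 2 female), GFP with social defeat (GFP defeat, n = 4, 2 female) and GFP without defeat (GFP control, n = 3, 1 female). The promoter of the virus and the cells it enters are not given in the sources used here. Whether each library came from its own animal is not stated, and p-values therefore measure the spread between these samples, which may be technical. For Setd7 defeat replicate 1 the identifier heading the data column has more digits than the one in the sample title, and whether that library holds 1 animal is not settled.

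Reads assigned to genes ranged from 26.5 to 50.8 mega-reads per library, and the 81 members held 0.667 to 0.882% of the normalized total. Setd7 itself read 92288 and 123133 normalized counts in Setd7 defeat, 158681, 140236, 81302 and 28587 in Setd7 control, 10888, 14060, 12946 and 12799 in GFP defeat, and 14538, 13480 and 13664 in GFP control, so the lowest Setd7 library exceeded the highest GFP library. Dopamine neuron markers were present in every library, but the mean log2 level of 17 such markers (the dopamine marker score) was low in 3 of them: it was 10.72 in GFP defeat replicate 1, 10.60 in GFP control replicate 2 and 10.33 in GFP control replicate 3, whereas the other libraries had 11.71 to 12.47. A score over 10 thalamus markers was 11 in GFP control replicate 2, 9.98 in GFP defeat replicate 4 and 8.58 in GFP control replicate 3, against 7.21 to 8.28 in the others. In GFP control replicate 3 the thalamus markers clearly raised included Tcf7l2 (9559 normalized counts) and Zic1 (1833). Zic4, a low gene, read 112 there, under only GFP control replicate 2 (141) and Setd7 defeat replicate 1 (147). Prkcd (394), Synpo2 (403) and Plekhg1 (2106) read far under their values in GFP control replicate 2 (4956, 4022 and 7971). The libraries named here stood apart in these marker levels. GFP control, the baseline of 2 of the comparisons below, holds 2 of the 3 that were low in dopamine markers. It also enters the interaction and the averages over defeat and over virus. The other such library, GFP defeat replicate 1, enters every comparison that uses GFP defeat.

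The members covered a wide range of levels. By mean normalized count over the 13 libraries, 4 lay under 30, 23 between 30 and 300, 34 between 300 and 3000 and 20 at 3000 or more, with a median of 1172. Just inside the minimum, the second highest library read 11.7 for Kcnk7, 18.1 for Kcnn4 and 18.3 for Kcnv2. Just outside, it read 8.22 for Kcne2 and 7.85 for Kcnk15. The other genes under the minimum were Kcna10, Kcna7, Kcne1, Kcne3, Kcnj1, Kcnj15, Kcnk16, Kcnk18 and Kcnmb3, and these were not tested.

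Genes were compared with each other per kilobase of exon. The highest level was that of Kcnj10, the inward rectifier through which astrocytes and oligodendrocytes take up potassium, at 4980 normalized counts per kilobase (4470 to 5880 over libraries). The axonal Kv1 subunits Kcna1 and Kcna2 followed at 4390 and 2560 normalized counts per kilobase, and Kcnab2, a cytoplasmic subunit that binds Kv1 channels, stood next at 2440. The range of Kcna1, 2760 to 7470, spanned that of Kcnj10, so the order of these 2 genes differed between libraries. The fast-spiking Kv3 subunits Kcnc1, Kcnc4 and Kcnc2 had 1640, 1170 and 1010 normalized counts per kilobase. The Kv1 subunit Kcna6 stood at 1490 and the Kv4 subunit Kcnd3 at 1060.

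Median levels differed between the classes of channel. The 15 pore subunits of Kv1 to Kv4 had a median of 1010 normalized counts per kilobase, whereas the 10 silent subunits, which form no channel alone and modify Kv2, had a median of 82.6, led by Kcng4 (700) and Kcns3 (233). Among 5 KCNQ genes, Kcnq3, a subunit of the M-current that restrains repetitive firing, stood at 661 normalized counts per kilobase, and the class median was 178. The 8 EAG, ERG and ELK genes had a median of 70.2, with Kcnh2, an ERG channel, at 837. The 13 inward rectifiers had a median of 317, with Kcnj16, which pairs with Kcnj10, second at 730.

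Of 11 two-pore leak channels (median 205 normalized counts per kilobase), Kcnk1 (942) and the acid-sensitive Kcnk9 (834) and Kcnk3 (445) were the highest. The 8 calcium- and sodium-activated channels had a median of 136, and their highest members were Kcnt1 (315), the sodium-activated channel Slack, and Kcnn3 (305). The large-conductance channel Kcnma1 stood close by at 279. The 11 auxiliary subunits had a median of 231 normalized counts per kilobase, and after Kcnab2 the highest was Kcnip4 (682), a calcium-binding partner of Kv4.

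**Figure D1:**
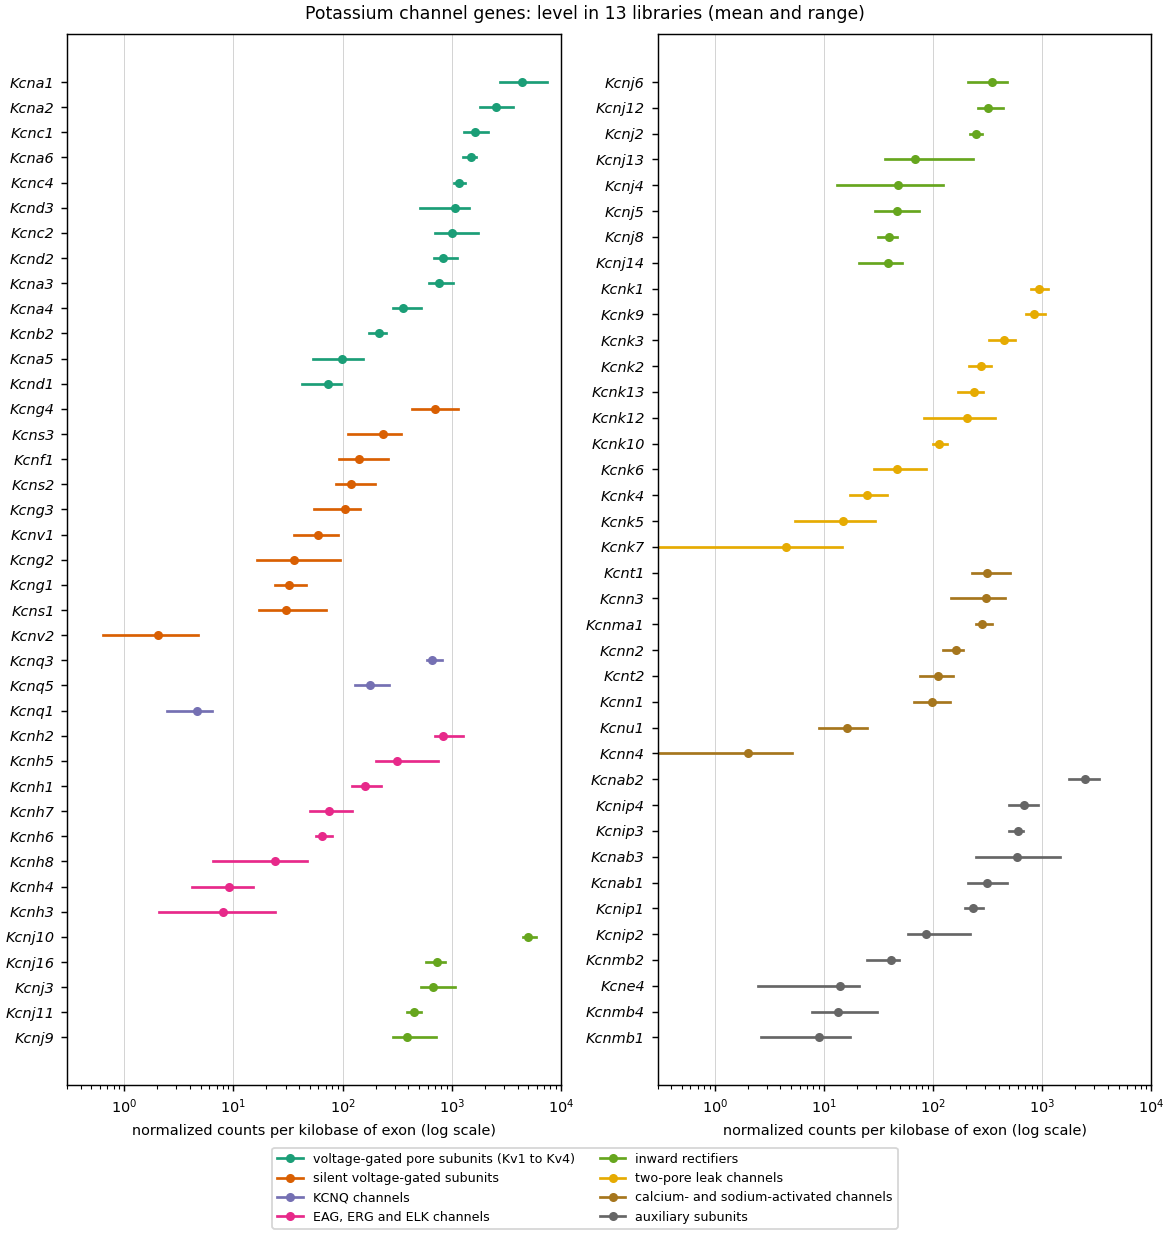
Level of 77 of the 81 potassium channel genes in normalized counts per kilobase of exon (log axis), grouped by class. Points are means over 13 libraries and lines run from the lowest to the highest library, and lines that reach the left edge go on below it. Kcnj10 (4980) and Kcna1 (4390) are the highest, and the silent Kv subunits and the EAG, ERG and ELK genes have the lowest class medians (82.6 and 70.2).

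Members differed in how evenly they were expressed across libraries. Among the 77 members with a mean of 30 or more, the SD of log2 values over the 13 libraries had a median of 0.31. Among the most even were Kcnc4 (SD 0.10) and Kcna6 (SD 0.12). Kcnc4 read 3968 to 4397 normalized counts in Setd7 defeat, 4186 to 4471 in Setd7 control, 4286 to 4797 in GFP defeat and 3803 to 4285 in GFP control. Among the least even were Kcnh3, an ELK channel (SD 1.08), and the inward rectifier Kcnj4 (SD 1.04). Both Kcnh3 and Kcnj4 had low means, 46.0 and 103 normalized counts, against 4286 for Kcnc4 and 8840 for Kcna6.

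A single library stood out among these values. GFP control replicate 3 was the highest library for 23 of the 77 members and the lowest for 15, and its median absolute distance from the gene medians was 0.40 on the log2 scale, against 0.07 to 0.21 in the other 12 libraries. The same values were not computed over all genes, so whether this departure is particular to the channel genes was not tested. The EAG channel Kcnh5 read 3037 normalized counts in GFP control replicate 3 against 829 to 1433 elsewhere, and the Kv1 partner Kcnab3 read 4150 against 711 to 1991. Kcnip2, a Kv4 partner, read 755 against 204 to 386. Of the 77 members, 12 had GFP control replicate 3 and GFP defeat replicate 2 as their 2 highest libraries, among them Kcna1, Kcna2, Kcnab1, Kcnab2, Kcnab3, Kcnc1, Kcnd1, Kcnh2, Kcnh5, Kcns1 and Kcnu1. This set was picked out after its values were seen and was given no test. It includes the axonal subunits Kcna1 and Kcna2, the 3 cytoplasmic subunits that bind Kv1 channels, and Kcnc1, a Kv3 subunit of fast-spiking neurons.

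Kcna1 shows the pattern of these genes. It read 15655 and 23182 normalized counts in Setd7 defeat, 25539, 20698, 17325 and 18536 in Setd7 control, 15777, 29433, 20510 and 13215 in GFP defeat, and 15630, 21736 and 35692 in GFP control. The highest and the lowest library thus both lay among GFP libraries, 2.7-fold apart, and each Setd7 group lay within the range of the GFP groups. Summed over the 15 Kv1 to Kv4 pore subunits, the level per kilobase was 15600 and 19300 in Setd7 defeat, 16700 to 20600 in Setd7 control, 15800 to 22300 in GFP defeat and 15200 to 23600 in GFP control. The sum over the 13 inward rectifiers moved less, between 7690 and 9300 normalized counts per kilobase over all libraries.

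**Figure D2:**
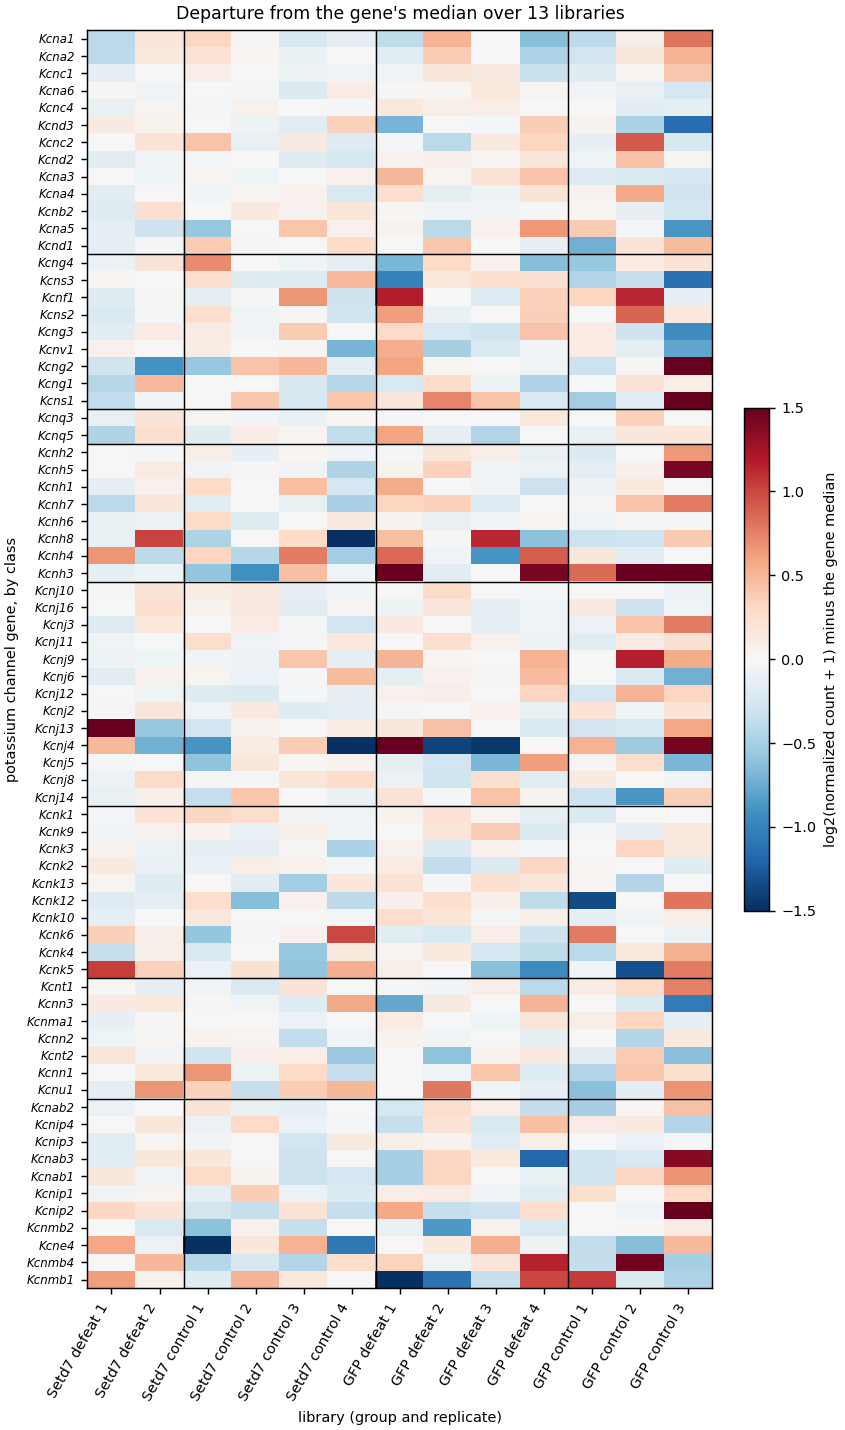
Departure of each library from the gene's median over 13 libraries, as log2(normalized count + 1), for 73 of the 77 potassium channel genes with a mean of 30 or more, ordered by class and level within class. Columns are libraries by group, black lines part groups and classes, and departures beyond 1.5 in size take the end colours. GFP control replicate 3 has the strongest departures, with a median absolute departure of 0.40 over all 77.

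A first question the libraries allow is which channel genes followed the dopamine neuron markers of the punch. Kcnd3 and Kcnn3 rose with the dopamine marker score, and no other member passed the test. The slope of log2 level on the score, fitted within the 4 groups with a term for sex, was 0.64 ± 0.07 for Kcnd3 (SE, adjusted p = 0.00156 by limma, the linear model fitted to all genes) and 0.67 ± 0.09 for Kcnn3 (adjusted p = 0.00848). Adjustment is Benjamini-Hochberg over all genes tested, the threshold is 0.05, and 0.350% of all genes passed in this fit. At an unadjusted p under 0.05 there were 16 members (19.8%), 7 with a positive and 9 with a negative slope, against 6.25% of all genes. The median slope of the 81 members was -0.108, against -0.003 over all genes. A positive slope was seen for 22 members (27.2%), against 48.7% of all genes. In bulk tissue, fewer cells of a type and less RNA per cell cannot be told apart.

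Kcnd3 read 11834 and 11173 normalized counts in Setd7 defeat, 10743, 10187, 9534 and 13626 in Setd7 control, 6609, 10788, 10533 and 13838 in GFP defeat, and 11124, 7759 and 4876 in GFP control. The 3 lowest values were those of the 3 libraries low in dopamine markers, and the 2 highest came from the 2 libraries with the highest score, 12.47 each. Kcnn3 read 3485 and 3557 in Setd7 defeat, 3219, 3071, 2800 and 4728 in Setd7 control, 1874, 3498, 3166 and 4544 in GFP defeat, and 3187, 2734 and 1535 in GFP control. Its order of libraries was much the same: the same 3 libraries were lowest and the same 2 highest. For both genes the 2 groups of every pairwise comparison below overlapped.

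The calls, though not the size of the slopes, were lost with few libraries left out. Without the 3 libraries low in Th, the slopes were 0.64 for Kcnd3 (adjusted p = 0.252) and 0.85 for Kcnn3 (adjusted p = 0.200). Without GFP control replicate 1, the only library of its group with a high score, they were 0.64 (adjusted p = 0.0615) and 0.79 (adjusted p = 0.0829), and without GFP defeat replicate 1 that of Kcnn3 was 0.69 (adjusted p = 0.163). The table also lists Kcnd3os, named as the opposite strand of Kcnd3, at 7.04 to 43.8 normalized counts, far under Kcnd3.

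Kcnd3 and Kcnn3 lie on chromosome 3, as does Kcna3, the Kv1 gene with the smallest p after defeat, whose slope on the score was -0.02 ± 0.07 (adjusted p = 0.975). The 250 bases before the start of each of these 3 genes are printed because 2 of the genes moved together with the score and the other did not. They come from RefSeq promoters of build GRCm38.p6, plus strand, matched by symbol since the table was made on GRCm39, and capitals mark CG dinucleotides.
Kcnd3, chr3:105451640-105451889: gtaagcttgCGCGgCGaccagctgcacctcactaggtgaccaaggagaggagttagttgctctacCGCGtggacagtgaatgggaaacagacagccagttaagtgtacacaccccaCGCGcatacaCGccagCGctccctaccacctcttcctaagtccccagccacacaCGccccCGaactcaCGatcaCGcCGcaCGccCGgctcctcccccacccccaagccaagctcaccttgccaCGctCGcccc
Kcnn3, chr3:89519914-89520163: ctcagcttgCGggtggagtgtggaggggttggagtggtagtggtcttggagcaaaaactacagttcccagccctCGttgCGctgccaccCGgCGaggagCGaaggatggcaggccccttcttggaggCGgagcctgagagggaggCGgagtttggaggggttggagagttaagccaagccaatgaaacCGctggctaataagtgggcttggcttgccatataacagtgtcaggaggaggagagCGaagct
Kcna3, chr3:107035912-107036161: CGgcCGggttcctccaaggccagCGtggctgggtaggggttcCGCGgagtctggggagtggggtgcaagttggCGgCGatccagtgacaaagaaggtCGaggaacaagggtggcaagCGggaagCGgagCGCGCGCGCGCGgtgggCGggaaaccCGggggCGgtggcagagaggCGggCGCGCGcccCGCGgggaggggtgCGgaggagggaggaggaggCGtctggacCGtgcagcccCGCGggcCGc
The windows hold 18, 10 and 31 CG dinucleotides, at a GC content of 62.8, 58.8 and 74.4% in the order printed, against a median of 6 CG dinucleotides over 32851 mouse promoters and 8 over 80 promoters of 57 of the members.

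In these windows 5 strings were searched on both strands, none of which contains another: the NR4A monomer site, AAAGGTCA, the PITX core, TAATCC, the forkhead core, TGTTTAC, the GC box, GGGCGG, and the TATA box, TATAAA. They occur in 1.34, 6.25, 3.17, 32.7 and 12.4% of all 32851 promoter windows in that order. The Kcnd3 and Kcnn3 windows hold 0 matches, and the Kcna3 window holds 2 GC boxes, which begin at positions -107 and -92 from the start. Absence of a match says only that these letters are not in the window.

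After the called genes came 4 members with an adjusted p above the threshold. Kcns3, a silent subunit that modifies Kv2 channels, had a slope of 0.60 ± 0.13 on the dopamine score (adjusted p = 0.0994 by limma), and Kcnj6 one of 0.37 ± 0.08 (adjusted p = 0.108). Kcnj3, which encodes another subunit of G-protein-gated channels, ran the other way at -0.32 ± 0.08 (adjusted p = 0.274), and so did the EAG channel Kcnh1 at -0.36 ± 0.10 (adjusted p = 0.333), which was lowest, at 894 and 930 normalized counts, in the 2 libraries with the highest score. DESeq2 on the recovered reads called Kcns3, Kcnj6 and Kcnj3 besides Kcnd3 and Kcnn3 (5 members; adjusted p = 0.00138, 0.00384 and 0.0369 for the 3), where it called 0.874% of all genes.

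Kcnj6 read 2338 and 2744 normalized counts in Setd7 defeat, 2712, 2472, 2579 and 3662 in Setd7 control, 2380, 2756, 2652 and 3627 in GFP defeat, and 2628, 2234 and 1598 in GFP control. Its 2 highest libraries were those with the highest dopamine score, as for Kcnd3 and Kcnn3, and GFP control replicate 3 was lowest. Kcnj3 read 2882 and 3659 in Setd7 defeat, 3311, 3576, 3252 and 2697 in Setd7 control, 3627, 3287, 2989 and 3180 in GFP defeat, and 3092, 4419 and 5640 in GFP control. The 2 GFP control libraries low in dopamine markers were the highest for Kcnj3, so the 2 subunits of one channel family stood at opposite ends there. The summed markers of excitatory neurons (3 genes) were also highest in those libraries, at 21907 and 20296 normalized counts, against 8000 to 17053 elsewhere, and their part in the Kcnj3 values was not tested.

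Other genes with a known role in dopamine neuron excitability did not pass. The slopes on the dopamine score were 0.04 ± 0.07 for Kcnip3, a Kv4 partner, -0.07 ± 0.08 for Kcnj11, the pore of metabolically gated channels, -0.18 ± 0.10 for Kcnh2, -0.15 ± 0.07 for Kcnk3 and -0.05 ± 0.09 for Kcnk9 (adjusted p from 0.811 to 0.956 by limma). The other small-conductance genes, Kcnn1 and Kcnn2, had slopes of -0.30 ± 0.16 and -0.01 ± 0.10 (adjusted p = 0.831 and 0.995). Whether these slopes differ from that of Kcnn3 was not tested.

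**Figure D3:**
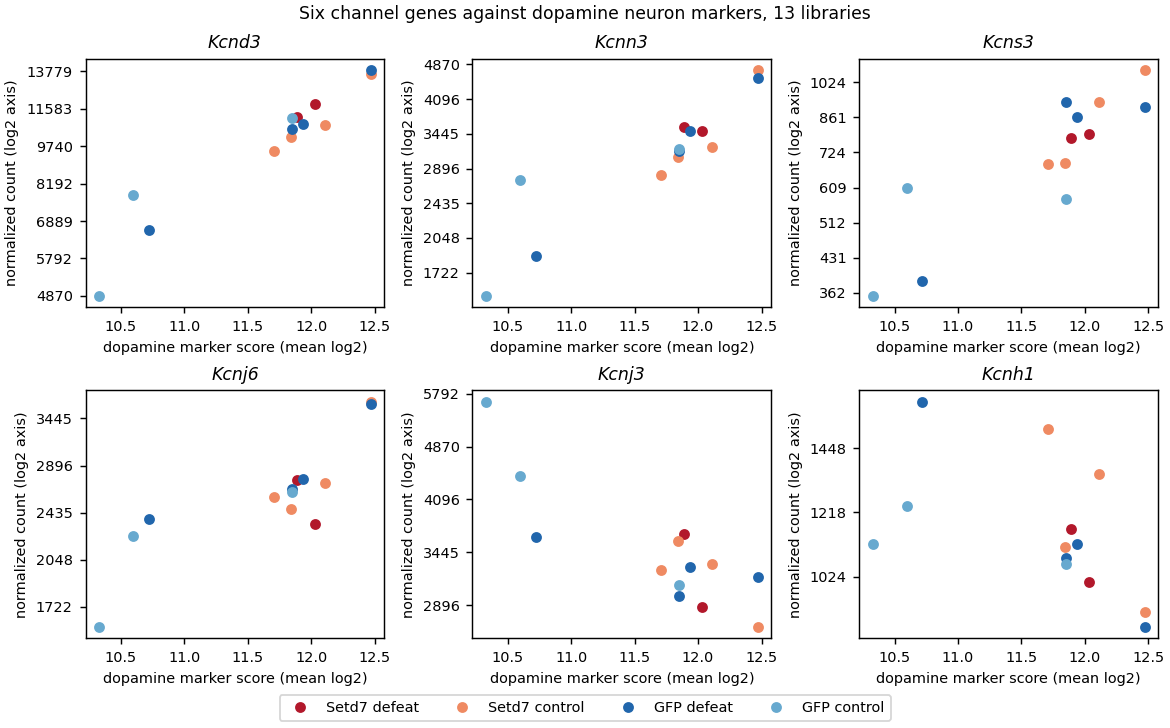
Normalized count (log2 axis) of the 6 members with the smallest p against the dopamine marker score, the mean log2 level of 17 markers, in 13 libraries coloured by group. Kcnd3 and Kcnn3 (slopes 0.64 and 0.67) passed the threshold, and the 3 libraries at the left have scores of 10.33 to 10.72.

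No member passed for the thalamus marker score in limma, where 0.293% of all genes did, and edgeR called 0. At an unadjusted p under 0.05 there were 16 members (19.8%), 13 with a positive slope and 3 with a negative one, against 8.29% of all genes. Among the 6 members with the smallest p was Kcnj9, a subunit of G-protein-gated channels, with a slope of 0.28 ± 0.07 (adjusted p = 0.170 by limma). Kcnk9 (-0.14 ± 0.04), the A-type gene Kcna4 (0.20 ± 0.06), the BK subunit Kcnmb4 (0.48 ± 0.15) and Kcnj5, another G-protein-gated subunit (0.34 ± 0.11), followed with adjusted p from 0.263 to 0.338. DESeq2 called 2 members, Kcnj9 among them, where it called 1.27% of all genes.

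Kcnj9 read 1306 and 1317 normalized counts in Setd7 defeat, 1335, 1304, 1833 and 1250 in Setd7 control, 1957, 1405, 1375 and 1973 in GFP defeat, and 1365, 3088 and 2024 in GFP control. GFP control replicate 2, which had the highest thalamus score, was the highest by a wide margin. Kcnmb4 read 103 normalized counts in that library and 83.7 in GFP defeat replicate 4, which had the next thalamus score, against 25.9 to 52.8 elsewhere.

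The comparison of Setd7 control with GFP control asks how extra Setd7, set against GFP, bore on these genes without defeat. No member passed (lowest adjusted p = 0.539 by limma), and 0% of all genes passed. Setd7 itself was thus not called by limma here. Yet its Setd7 control libraries (28587 to 158681 normalized counts) all lay above those of GFP control (13480 to 14538). For the members, edgeR called 0 and DESeq2 called 0, with 25 members left without an adjusted p. An unadjusted p under 0.05 was seen for 12 members (14.8%), 4 higher and 8 lower with Setd7, against 8.01% of all genes. The median log2 difference of the 81 members was -0.052, against 0.006 over all genes. Higher with Setd7 were 34 members (42%), against 51.4% of all genes. The groups did not overlap for 4 members (4.94%), against 8.26% of all genes: Kcna3 and Kcns3 lay higher and Kcnh3 and Kcnh7 lower with Setd7.

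Kcnh3 read 15.3, 11.9, 32.4 and 22.4 normalized counts in Setd7 control, against 43.0, 82.8 and 137 in GFP control. All 4 Setd7 libraries lay under all 3 GFP libraries, at counts too low for a precise level, and the log2 difference was -1.90 ± 0.54 (adjusted p = 0.539 by limma). Kcnh7, an ERG channel, read 965, 1077, 1002 and 767 in Setd7 control, against 1093, 1453 and 1838 in GFP control, a log2 difference of -0.59 ± 0.20 (adjusted p = 0.563). The nearest libraries of the 2 groups, 1077 and 1093, were almost level. With the dopamine score as a covariate the differences were -1.09 for Kcnh3 and -0.23 for Kcnh7.

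Kcns3 read 929, 687, 683 and 1086 normalized counts in Setd7 control, against 575, 609 and 357 in GFP control, and the log2 difference was 0.76 ± 0.29 (adjusted p = 0.585 by limma). The 2 groups did not overlap, and with the dopamine score as a covariate the difference was 0.10. The leak channel Kcnk3 read 1620, 1625, 1813 and 1288 in Setd7 control, against 1797, 2229 and 1993 in GFP control, a log2 difference of -0.34 ± 0.12 (adjusted p = 0.564). Kcnt1 read 2759, 2446, 3260 and 2843 in Setd7 control, against 3065, 3458 and 4821 in GFP control, and differed by -0.38 ± 0.15 (adjusted p = 0.589). Kcnk3 and Kcnt1 overlapped between the groups in 1 Setd7 library each, and with the dopamine score as a covariate they differed by -0.17 and -0.14.

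Kcnj3 had a log2 difference of -0.40 ± 0.17 (adjusted p = 0.605 by limma) and Kcnj6 one of 0.44 ± 0.18 (adjusted p = 0.605), with the library values given above. For Kcnj3 the difference was 0.07 without the 3 libraries low in Th, where GFP control keeps only replicate 1. Marker sums are given beside these differences. The summed 17 dopamine markers held 106538 to 193237 normalized counts in Setd7 control, against 39987 to 113410 in GFP control. These ranges overlapped, since GFP control replicate 1 held 113410. No dopamine marker was at 0 in any library. The summed thalamus markers held 4815 to 6341 in Setd7 control, against 6309 to 34747 in GFP control. The sum of GFP control replicate 3 was 15372, of which Tcf7l2 alone held 9559. Beyond the covariate fits above, the part of tissue content in the differences was not tested.

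By class, the 13 inward rectifiers had a median log2 difference of 0.03, with 7 higher and 6 lower with Setd7. The 11 two-pore channels had a median of 0.01 and the 15 Kv1 to Kv4 subunits one of -0.01. The 8 EAG, ERG and ELK genes had a median of -0.26, with 6 lower, and the 11 auxiliary subunits one of -0.25, with 8 lower. None of these genes passed.

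The comparison of GFP defeat with GFP control asks what defeat did in mice without extra Setd7. No member passed in limma or edgeR, and 0% of all genes passed in limma (7 members had no adjusted p in DESeq2). DESeq2 called 1 member, Kcna3, the Kv1 subunit best known from lymphocytes and microglia and also present in axons, where it called 0.479% of all genes. Of the members, 6 (7.41%) had an unadjusted p under 0.05, 4 higher and 2 lower after defeat, against 9.25% of all genes, a share no larger than the background. The median log2 difference of the members was -0.010, against -0.002 over all genes. This comparison and that of Setd7 without defeat share the 3 GFP control libraries.

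Kcna3 read 1962, 1430, 1606 and 1881 normalized counts in GFP defeat, against 1221, 1192 and 1173 in GFP control. The groups did not overlap, and the 3 GFP control libraries were the lowest of all 13. GFP defeat averaged 1719 ± 246 and GFP control 1195 ± 24.0 normalized counts (SD, n = 4 and n = 3), a ratio of 1.44. The log2 difference was 0.52 ± 0.10 (adjusted p = 0.339 by limma, adjusted p = 0.346 by edgeR and 0.00396 by DESeq2). Over all other settings the adjusted p ran from 0.218 to 0.696, and the difference was 0.35 without the 3 libraries low in Th.

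The Kcna3 difference of 0.35 without the 3 libraries low in Th was set against GFP control replicate 1 alone. With all libraries, the difference was 0.53 with the dopamine score as a covariate and 0.55 with the thalamus score. The summed markers of microglia (6 genes), cells that also use Kcna3, held 6168 to 7369 normalized counts in GFP defeat. In GFP control they held 5776 to 7618, an overlapping range. The part of cell content in the Kcna3 difference was not tested.

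The other members apart between the groups were Kcna6 and Kcnc4, both higher after defeat, and Kcnt1, lower after defeat, which makes 4 members (4.94%) with Kcna3, against 9.0% of all genes. Kcna6 read 9090, 9181, 9998 and 9236 normalized counts in GFP defeat, against 8645, 8298 and 7536 in GFP control, a log2 difference of 0.20 ± 0.08 (adjusted p = 0.493 by limma). Kcnc4 read 4797, 4547, 4588 and 4286 in GFP defeat, against 4285, 3803 and 3866 in GFP control, and differed by 0.19 ± 0.06 (adjusted p = 0.449). Both are among the most even members, so small differences stood out from their spread, and for Kcnc4 the nearest libraries were 1 count apart. Without the 3 libraries low in Th the difference of Kcnc4 was 0.05, set against GFP control replicate 1 alone.

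Kcnt1 read 2807, 2766, 3047 and 2146 normalized counts in GFP defeat, against 3065, 3458 and 4821 in GFP control, and the log2 difference was -0.46 ± 0.15 (adjusted p = 0.423 by limma). GFP control replicate 3 was far above the rest, and the difference was -0.29 without it. Kcnj6 differed by 0.43 ± 0.18 (adjusted p = 0.502) and Kcnj3 by -0.37 ± 0.17 (adjusted p = 0.529), and with the dopamine score as a covariate these were 0.13 and -0.11. The summed dopamine markers held 48505 to 180813 normalized counts in GFP defeat, against 39987 to 113410 in GFP control.

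**Figure D4:**
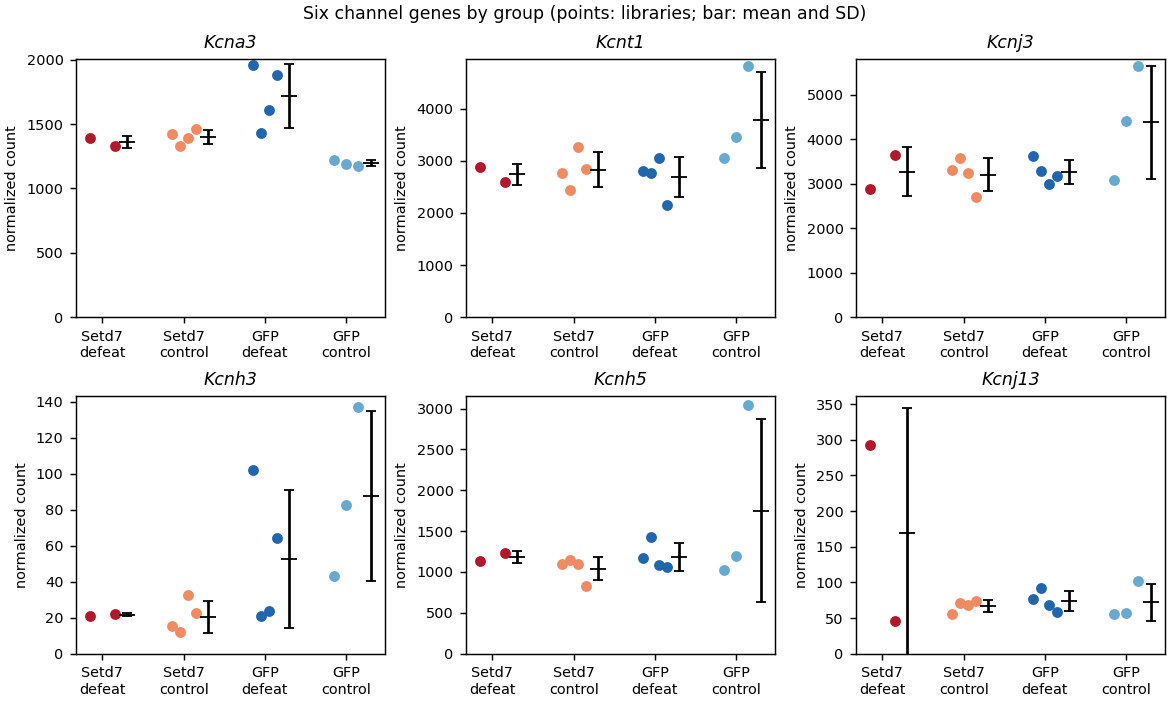
Normalized counts of 6 members in each library by group, with the mean and SD beside the points. Kcna3 lies at 1430 to 1962 in GFP defeat, above the 3 GFP control libraries at 1173 to 1221, while Kcnh5 and Kcnj13 are each high in 1 library (3037 in GFP control replicate 3 and 293 in Setd7 defeat replicate 1).

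Setd7 defeat against GFP defeat asks what Setd7 did in defeated mice. No member passed (0% of all genes, lowest adjusted p of a member 0.990 by limma), and edgeR and DESeq2 called 0 members. At an unadjusted p under 0.05 there was 1 member (1.23%), Kcna3, against 4.85% of all genes, and the median log2 difference of the members was -0.007, against 0.003 over all genes. Kcna3 read 1393 and 1327 normalized counts in Setd7 defeat, against 1962, 1430, 1606 and 1881 in GFP defeat, and both Setd7 libraries lay below all GFP libraries. The log2 difference was -0.33 ± 0.11 (adjusted p = 0.990).

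The groups did not overlap for 8 members (9.88%), against 14.1% of all genes. Kcnk5, an alkaline-activated leak channel, was the only one of them higher with Setd7, at 99.3 and 61.0 normalized counts in Setd7 defeat, against 50.8, 47.8, 30.5 and 24.2 in GFP defeat (log2 difference 1.07 ± 0.50, adjusted p = 0.990 by limma). Those lower with Setd7 included Kcna3, Kcna6, Kcnd2, Kcng2, Kcnj12 and Kcnj9. Kcnk10 (-0.20 ± 0.10), Kcnd2 (-0.20 ± 0.12) and Kcnc4 (-0.12 ± 0.07) were also among the 6 members with the smallest p.

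Setd7 defeat against Setd7 control asks what defeat did under Setd7. No member passed (0% of all genes; lowest adjusted p of a member 1 by limma), edgeR and DESeq2 called 0 members, and 0 members had an unadjusted p under 0.05, against 2.59% of all genes. The median log2 difference of the members was 0.017, against -0.007 over all genes. The groups were apart for 1 member (1.23%), Kcnd1, a Kv4 subunit that was lower after defeat, against 9.14% of all genes. Kcna3 read 1393 and 1327 normalized counts in Setd7 defeat, against 1422, 1333, 1389 and 1461 in Setd7 control, overlapping values with a log2 difference of -0.04 ± 0.11 (adjusted p = 1).

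The 6 members with the smallest p here were mostly low in count. Kcnh8, an ELK channel, differed by 0.91 ± 0.56, Kcne4, a small auxiliary subunit, by 0.92 ± 0.65, the silent subunit Kcng2 by -0.65 ± 0.47, Kcnk5 by 0.67 ± 0.50 and Kcnk3 by 0.17 ± 0.13 (adjusted p = 1 each by limma). Kcnj13, an inward rectifier of choroid plexus epithelium, read 293 and 45.7 normalized counts in Setd7 defeat, against 55.7, 70.5, 68.0 and 73.4 in Setd7 control. Its difference of 0.80 ± 0.51 rested on Setd7 defeat replicate 1 and was -0.54 without it. In that library the summed markers of meningeal fibroblasts (8 genes) held 8697 normalized counts, against 1056 to 2359 elsewhere, and those of choroid plexus (6 genes) held 1217, against 392 to 1424 elsewhere. Their part in the Kcnj13 value was not tested.

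The interaction asks whether the Setd7 difference was another after defeat than without it. No member passed (0% of all genes), edgeR and DESeq2 called 0 members, and 2 members (2.47%) had an unadjusted p under 0.05, both negative, against 4.96% of all genes. Kcna3 came first at -0.56 ± 0.15 (adjusted p = 0.942 by limma), as it lay higher with Setd7 without defeat (0.23 ± 0.10) and lower after it (-0.33 ± 0.11). Kcnc4 followed at -0.23 ± 0.10, Kcnj6 at -0.59 ± 0.28, Kcnk3 at 0.35 ± 0.18, Kcnj2, a classical inward rectifier, at 0.27 ± 0.14 and Kcnt1 at 0.42 ± 0.23 (adjusted p = 0.942 each). This term for Kcna3 uses the same GFP control and GFP defeat libraries as the comparisons above and is no separate support.

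Averaged over defeat, Setd7 gave 0 called members, where 0.00563% of all genes passed in limma, and edgeR and DESeq2 called 0 members. At an unadjusted p under 0.05 there were 5 members (6.17%), all lower with Setd7, against 7.12% of all genes: Kcnh3 (-1.42 ± 0.41), Kcnd2, an A-type Kv4 subunit (-0.23 ± 0.08), Kcnh7 (-0.41 ± 0.15), Kcnj9 (-0.41 ± 0.16) and Kcnj12, an inward rectifier (-0.22 ± 0.10), with adjusted p from 0.686 to 0.697 by limma. The silent subunit Kcns2 was next (-0.35 ± 0.17, adjusted p = 0.705). With the thalamus score as a covariate, the differences were -0.12 for Kcnd2, -0.16 for Kcnj9, -0.09 for Kcnj12 and -0.15 for Kcns2. Over all settings that left out no single library, the smallest in size were -0.94 for Kcnh3, -0.12 for Kcnd2 and -0.16 for Kcnh7. For Kcnj9, Kcnj12 and Kcns2 the smallest were -0.13, -0.04 and -0.12. Over all members the median was -0.053, against 0.003 over all genes, and 28 of 81 (34.6%) were higher, against 51% of all genes.

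Averaged over virus, defeat gave 0 called members in limma, edgeR and DESeq2 (0% of all genes in limma) and 2 members (2.47%) at an unadjusted p under 0.05, against 5.18% of all genes. These were Kcna3 (0.24 ± 0.07, adjusted p = 0.922 by limma) and Kcnt1 (-0.25 ± 0.11, adjusted p = 0.922). Kcna6 (0.11 ± 0.06), Kcnh8 (0.63 ± 0.38), Kcnc4 (0.07 ± 0.05) and Kcne4 (0.65 ± 0.43) followed, with adjusted p from 0.929 to 0.945. The median of the 81 members was -0.019, against 0.001 over all genes.

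**Figure D5:**
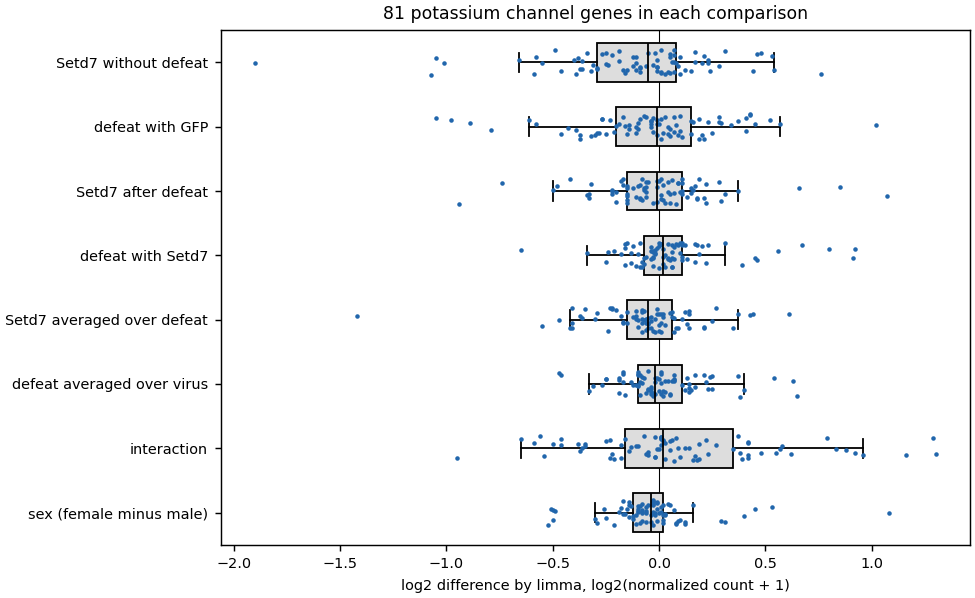
Log2 differences of the 81 potassium channel genes by limma in each comparison, on the log2(normalized count + 1) scale. Points are genes, boxes hold the middle of the distribution with its median, and whiskers end at the last point within 1.5 times the box. Medians lie between -0.053 and 0.024, and Kcnh3 is the point farthest to the left for Setd7 without defeat (-1.90).

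Between the sexes no member passed, where 0.0620% of all genes did, edgeR and DESeq2 called 0 members, and 1 member (1.23%) had an unadjusted p under 0.05, against 3.87% of all genes. The sexes did not overlap for 1 member (1.23%), against 0.163% of all genes. Among the 6 members with the smallest p, 5 had sexes that overlapped. Kcnj12 differed by -0.19 ± 0.09, Kcnip1, a Kv4 partner, by 0.16 ± 0.09, the silent subunit Kcnv1 by 0.31 ± 0.18, Kcnmb4 by -0.50 ± 0.31 and Kcnj16 by 0.12 ± 0.08 (adjusted p = 0.999 each by limma). Over the 81 members the median was -0.038, against -0.003 over all genes. Higher in females were 25 members (30.9%), against 48.9% of all genes.

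Since limma called 0 to 0.0620% of all genes in the comparisons of the study, the absence of a call there says nothing particular about a gene. The KCNQ genes Kcnq3 and Kcnq5, the Kv3 genes Kcnc1, Kcnc2 and Kcnc4, the Kv2 gene Kcnb2, and the BK genes Kcnma1 and Kcnmb4 had no adjusted p at or under 0.05 there by limma, edgeR or DESeq2. Nor had the glial genes Kcnj10, Kcnj16 and Kcnk1. Kcnj10 averaged 27938 ± 3280 normalized counts in Setd7 defeat (SD, n = 2), 26716 ± 2310 in Setd7 control (n = 4), 27518 ± 2880 in GFP defeat (n = 4) and 25696 ± 955 in GFP control (n = 3), which overlap.

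Some members are linked with microglia and mural cells. Kcnk13, a leak channel of microglia, averaged 712 ± 78.2 normalized counts in Setd7 defeat, 693 ± 133 in Setd7 control, 832 ± 70.1 in GFP defeat and 682 ± 116 in GFP control (SD, n = 2, 4, 4 and 3). Kcnk6 was highest in Setd7 control replicate 4, at 356 against 119 to 305 elsewhere. The summed microglia markers were highest in the same library, at 14850 against 5776 to 8902 elsewhere. Kcnk13 and Kcna3 were not highest there, at 838 against 524 to 890 elsewhere and 1461 against 1173 to 1962 elsewhere. A link of these genes with the microglia markers was not tested. Kcnj8, the mural cell gene of metabolically gated channels, kept between 80.1 and 120 normalized counts in all libraries.

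Partners of these channels that carry other names were listed from general knowledge: 23 genes, of which 22 were tested. They hold Kv4, Kv2 and Kv1 partner proteins, the sulfonylurea receptors, BK gamma subunits, axonal anchors and regulators of G-protein-gated channels. In the 8 comparisons of the study 0 of the 22 passed by limma, against 0 to 0.0620% of all genes. Per comparison, 0 to 3 had an unadjusted p under 0.05 by limma, against 2.59 to 9.25% of all genes. The most, 3 of 22, were seen for defeat with GFP, where the share of all genes was 9.25%. Whether these counts depart from the background was not tested. Along the dopamine score 1 passed, Lrrc55, a gamma subunit that eases the opening of BK channels, with a slope of 0.40 ± 0.05 (adjusted p = 0.00582 by limma), where 0.350% of all genes passed. Lrrc55 read 3014 and 3038 normalized counts in Setd7 defeat, 2892, 2848, 2878 and 3290 in Setd7 control, 2320, 3200, 3005 and 3973 in GFP defeat, and 2879, 1797 and 1975 in GFP control, and the 3 libraries low in dopamine markers were its lowest. The other BK gamma genes tested did not share this slope. Lrrc26 had -0.71 ± 0.28 and Lrrc38 had -0.05 ± 0.25 (adjusted p = 0.74 and 0.98 by limma), both at low counts. The BK pore Kcnma1 itself had its highest value, 5828, in GFP control replicate 2, the library with the highest thalamus score.

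At an unadjusted p under 0.05, Lrrc55 and Rgs7bp, a membrane anchor of regulators of G-protein signalling, were the partners found in Setd7 without defeat (0.46 ± 0.17 and -0.34 ± 0.13, adjusted p = 0.584 and 0.579 by limma). With defeat under GFP they were joined by Snx27, which sorts G-protein-gated channels in endosomes (0.50 ± 0.17, -0.34 ± 0.13 and 0.13 ± 0.06, adjusted p from 0.449 to 0.516). The GABA-B receptor gene Gabbr2, which gates these channels, had the smallest adjusted p of the partners along the thalamus score (0.21 ± 0.04, adjusted p = 0.0703), and read 17954 in GFP control replicate 2, against 9919 to 14402 elsewhere.

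Overlapping genes limit a few of these values. Kcnq1 (mean 18.9 normalized counts) lies in the same region as the long RNA Kcnq1ot1, which read 2838 to 9654, and whether reads were counted by strand is not given in the sources used here. The values of Kcnq1 are therefore uncertain.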

How the data were processed

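Total RNA from VTA punches was purified with RNeasy Micro kits and made into ribosome-depleted TruSeq libraries, per the labels' protocols. Per the submitters' processing notes, Bowtie2, GRCm39, featureCounts and DESeq2 were used, without versions. The authors deposited 1 table of 26264 genes by 13 samples, in which each signal value is a read count scaled by a DESeq2 size factor, and 0 columns belonged to no listed sample. Values are multiples of 1 step per library, and all 341432 lay within 0.01 of a whole read (100%), which gave the recovered reads. The intervals that depth allows cover counting error only.

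Genes with 10 or more normalized counts in at least 2 samples were tested with limma 3.58.1 (R 4.3.3) with a trend on log2(normalized count + 1). For low genes these differences could be smaller or larger than those of the count tests. Kcnh3 in Setd7 without defeat had -1.90 by limma and -2.02 by edgeR, and Kcne4 for defeat with Setd7 had 0.92 and 0.64. The fit held 4 group means and sex over all 13 samples, with 8 residual and 4.64 prior degrees of freedom, two-sided, Benjamini-Hochberg adjusted, with a threshold of 0.05. Marker scores were added as slopes, their own genes left out. Count tests on recovered reads used edgeR 4.0.16 and DESeq2 1.42.0. The test was checked on simulated data. Exon lengths (GRCm38) and promoters were matched by symbol for all 81 members and for 57, so levels per kilobase are approximate.

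Replicates of a group correlated at 0.971 to 0.984 across genes, and chi-square tests of their reads gave 15.2 to 48.6 per degree of freedom, so none were duplicates. Named per comparison were members past the threshold or, with under 6 of those, the 6 of lowest p and a mean of 30 or more, plus role genes and the most and least even; names outside this rule were chosen after values were seen, and 4 members are not reported here by name. The members and lists were chosen with earlier results of these data known. Alternatives were another pseudocount (10), other filters, edgeR, DESeq2, no sex term, array weights, each library left out, the 3 libraries low in Th left out, and marker scores as covariates.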

Additional observations from a re-analysis of the deposited data

Results flagged for a closer look

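Over the members named in the text, 110 groups of 4 libraries were checked for a library far from the other 3 (Dixon's test of its gap as a share of the range of the group), and 8 held one. Chance gives about 5% of groups.

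In GFP defeat, 5 members were flagged. Kcns3 was low in replicate 1, at 383 normalized counts against 864 to 929 in the other 3 (gap share 0.881), and that library was low in dopamine markers. Kcng2 was high in the same library, at 140 against 88.7 to 94.6 (0.886). Kcnj10 was high in replicate 2, at 31805 against 25640 to 26387 (0.879). Kcna6 was high in replicate 3, at 9998 against 9090 to 9236 (0.840). Kcnq3 was high in replicate 4, at 10582 against 9310 to 9463 (0.880).

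In Setd7 control, 3 members were flagged. Replicate 3 was high for Kcnj9, at 1833 against 1250 to 1335 (0.853), and low for Kcnma1, at 4385 against 4610 to 4645 (0.864). Replicate 2 was high for Kcnip1, at 1788 against 1209 to 1303 (0.838).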

How the results depend on the processing

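Of 1362 recomputed values for 60 named results, 1343 kept their direction and side of the threshold, 5 lost a call, 11 gained one and 3 turned their sign. Only 2 of these results were called by the reported test, Kcnd3 and Kcnn3 on the dopamine score. They lost the call in 2 and 3 of 22 alternatives. For the others, keeping the side of the threshold means staying uncalled, so the total is no measure of how stable the calls are. Without the 3 libraries low in Th, Kcnj3 turned its sign both in Setd7 without defeat (0.07) and in GFP defeat against GFP control (0.06). Both values were then set against GFP control replicate 1 alone. Kcnj13 for defeat with Setd7 ran from -0.54, without Setd7 defeat replicate 1, to 2.13, without Setd7 defeat replicate 2, as single libraries were left out. The cause was not tested.

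Called members were 0 in each of the 8 comparisons of the study under all alternatives, except for 1 by DESeq2 for defeat with GFP (Kcna3). For the dopamine score, 2 by the reported test became 5 by DESeq2, 0 without the 3 libraries low in Th, and 0 to 3 with each library left out: 0 without GFP control replicate 1, 1 (Kcnd3) without GFP defeat replicate 1 and 3 without GFP control replicate 2, where Kcns3 passed (0.67, adjusted p = 0.0138 by limma). For the thalamus score, 0 became 2 by DESeq2 and 2 without the sex term (Kcnj9 among them), 1 without the 3 libraries low in Th (Kcnab3), 1 with both scores in the model (Kcnj9, an alternative chosen after seeing the data, as was the thalamus covariate), and 0 to 4 with each library left out (4 without GFP control replicate 1: Kcna5, Kcnab3, Kcnc1 and Kcnj5).

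No paired analysis was possible because the labels give each library its own number and the groups share none. Groups of 2 to 4 libraries, 3 of them low in dopamine markers, limit what was detectable, and genes under 30 normalized counts have the least precise levels.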
